A study of Mus musculus with 8 samples.

Results

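The heat shock factors Hsf1 and Hsf2 and 8 genes for cytosolic heat shock proteins (Hspa1a, Hspa1b, Hspa8, Hsph1, Hsp90aa1, Hsp90ab1, Dnajb1 and Hspb1) were followed through MEK inhibition, 10 genes of the 34478 in the deposited table. They were picked by name with their response to the inhibitor already known, among it that Hsf1 is listed at 0 in some treated libraries, so their own changes are given as a description, without p-values, and their calls in the fit over all genes only as counts. RNA came from 4 primary cell lines, numbered #1, #3, #5 and #10, grown from pancreatic ductal adenocarcinomas (PDAC) of genetically engineered mice whose genotype includes Ptf1awt/Cre and Trp53loxP/loxP. In these mice Cre recombinase, made from the locus of the pancreatic lineage factor Ptf1a, removes Trp53, and both treatment groups carry the same alleles. The lines were cultured for 48 h with the MEK inhibitor (MEKi) trametinib, dosed at the IC50 of the respective line, or were DMSO controls. Of every line and condition 1 library was made, 8 in all, so the spread given here is that between 4 lines, with no repeat culture of a line.

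The heat shock response protects cells from unfolded protein. In resting cells the transcription factor HSF1 is held inactive by chaperones of the HSP70 and HSP90 families. When these are drawn away by damaged protein, HSF1 forms trimers, enters the nucleus and binds heat shock elements, inverted repeats of the 5-base unit nGAAn, upstream of chaperone genes. Tumor cells are known to lean on this system, since many oncogenic kinases are clients of HSP90.

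Heat shock elements close to the start of a gene are the sequence feature that ties the heat shock proteins to HSF1, and those found in the RefSeq promoter table (GRCm38.p6, 250 bases before to 50 bases after a start) are therefore shown first. Both motifs searched, GAANNTTC and TTCNNGAA, are their own reverse complement and so were read on both strands in 1 pass, and they can overlap each other. The table held a promoter for 6 of the 10 genes. Hspa1a, Hspa1b, Hspb1 and Hsph1 carried at least 1 match, 4 of 6, against 15.1% of the 32851 promoters and 17.0% of the 27025 genes in the table, and Hsf2 and Dnajb1 carried none in this window. Hsf1, Hspa8, Hsp90aa1 and Hsp90ab1 had no entry. In the gene lists described below, matches ran from 0 of 7 other HSP70 and HSP110 genes to 3 of 7 other small heat shock proteins. They were found for 1 of 10 other HSF1 target genes and for 3 of 8 genes of a list of ERK output. Each window below has 30 bases, is written 5′ to 3′ on the strand of its gene, and has the fixed bases of the motif in capitals. The windows of Hspa1b (chr17:34959324-34959353, minus strand) and Hspa1a (chr17:34972242-34972271, minus strand) have the same sequence, with the motif beginning 104 bases before the start. The window of Hspb1 (chr5:135887801-135887830, plus strand) holds a pair of motifs, the first of them 117 bases before the start, and in that of Hsph1 (chr5:149636351-149636380, minus strand) the motif begins 33 or 54 bases before it, as the table lists 2 starts for Hsph1.
Hspa1b: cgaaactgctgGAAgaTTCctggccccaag
Hspa1a: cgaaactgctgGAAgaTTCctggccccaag
Hspb1: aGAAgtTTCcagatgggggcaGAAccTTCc
Hsph1: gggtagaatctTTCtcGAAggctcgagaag

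Dusp6, a phosphatase induced by ERK signaling, was 7011 ± 2055 normalized counts (SD, n = 4 lines) with DMSO and 1310 ± 670 with MEKi, a log2 fold change of -2.51 (SE 0.14, adjusted p = 0.00012 in limma with Benjamini-Hochberg adjustment). Etv4, an ETS factor downstream of ERK, had a log2 fold change of -5.92 (SE 0.39, adjusted p = 0.0002 in limma). Of the ductal epithelial markers tested, 5 of 7 were lower with MEKi in limma, as were 25.6% of all genes, with 2 lower without line #5 and 0 without the block (1 at an unadjusted p under 0.05). The keratins Krt7, Krt8, Krt18 and Krt19 and the ductal factor Sox9 were detected, and the summed level of 8 ductal epithelial markers was 222234 to 350363 with DMSO and 114056 to 222637 with MEKi, although the epithelial marker Epcam was listed at 0 in all libraries but those of line #3, where it reached 10.4. Sums of acinar markers (6.64 to 21.6 over all libraries, with Cpa1 at 0) were low in both groups. Those of fibroblast markers were 95.8 to 369 with DMSO and 440 to 1260 with MEKi, with Lum at 0. Leukocyte markers summed to 145 to 231 and 227 to 509, and endothelial markers to 30.9 to 54.6 and 62.7 to 831. Higher in limma at an adjusted p under 0.05 were 1 of 5 fibroblast, 1 of 3 leukocyte and 1 of 3 endothelial markers tested. These were Col1a1, Csf1r and Tek, and the share of all genes that were higher was 27.3%. Tek had a DMSO mean of 8.21 and passed the filter of 10 only through the MEKi group. None of the markers tested in these 3 lists was lower. The part of these markers in the values below was not tested, and in such bulk libraries fewer cells of a type and less RNA per cell cannot be told apart.

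Hsf1, the master regulator of the response, lies at chr15:76477422-76501913 on the plus strand of GRCm38, and its exons overlap no other gene. With DMSO it was at 316, 298, 356 and 208 normalized counts in lines #1, #3, #5 and #10. With MEKi it was listed at 0 in lines #1 and #3, and was at 189 in line #5 and 100.0 in line #10. Both MEKi libraries with a level above 0 were below all 4 DMSO libraries. The log2 fold change was -0.91 in line #5 and -1.05 in line #10, and no direction is read from the other lines because a 0 in this table need not mean absent or low RNA. Tsc2 and Rrp36, genes used by most cells and picked here after their values were seen, were each listed at 0 in 7 of 8 libraries with 120 normalized counts of Tsc2 and 101 of Rrp36 in the library left over.

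No other gene of the table shared the pattern of Hsf1, 0 in exactly these 2 libraries and at least 50 in the other 6, and none did so with a minimum of 20 or 10. With a minimum of 5, 1 gene did (Gm20458). Hsf1 itself, at 99.98 in its lowest other library, is just outside a stricter group of 16 genes that were either at 0 or at 100 or more in every library, with at least 1 of each. Some genes went from 200 or more with DMSO to 0 with MEKi. These were 4 genes in line #1, 4 in line #3, 1 in line #5 and 1 in line #10. Hsf1 itself is among those of lines #1 and #3. The opposite way went 0, 2, 3 and 1 genes. The neighbors of Hsf1 on the chromosome were measured in every library. Bop1, a ribosome biogenesis factor on the opposite strand, fell from 6299 ± 1219 to 3220 ± 1264 (log2 fold change -1.05, SE 0.16, adjusted p = 0.0022 in limma). Dgat1, which makes triglycerides, rose from 701 ± 64.4 to 1232 ± 242 (log2 fold change 0.80, SE 0.13, adjusted p = 0.0029 in limma).

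By root mean square distance of centred log2 values over the 8 libraries, the genes nearest to Hsf1 were Gzme (1.65), Fosl1 (2.0) and Slc17a6 (2.04). These distances take the 0s of Hsf1 as measured values, so they hold only as far as those values do. Fosl1, an AP-1 gene, ran from 1639 to 4523 with DMSO and from 57.2 to 487 with MEKi. With MEKi, Gzme ran from 0 to 13.7 and Slc17a6 from 0 to 2.86. Both passed the filter of 10 only through the DMSO group.

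Hsf2, the second heat shock factor, which binds the same elements and can form mixed trimers with HSF1, did not share this pattern (chr10:57486385-57513135, plus strand). It was at 1627, 1161, 1493 and 1146 with DMSO and at 1494, 1542, 1706 and 1385 with MEKi. The groups overlapped, with a lower value in line #1 and higher values in the other 3 lines (mean log2 fold change 0.19 ± 0.23, SD, n = 4 lines). This mean was 0.11 without line #3, 0.29 without line #1 and 0.32 with libraries rescaled to equal totals.

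**Figure D1:**
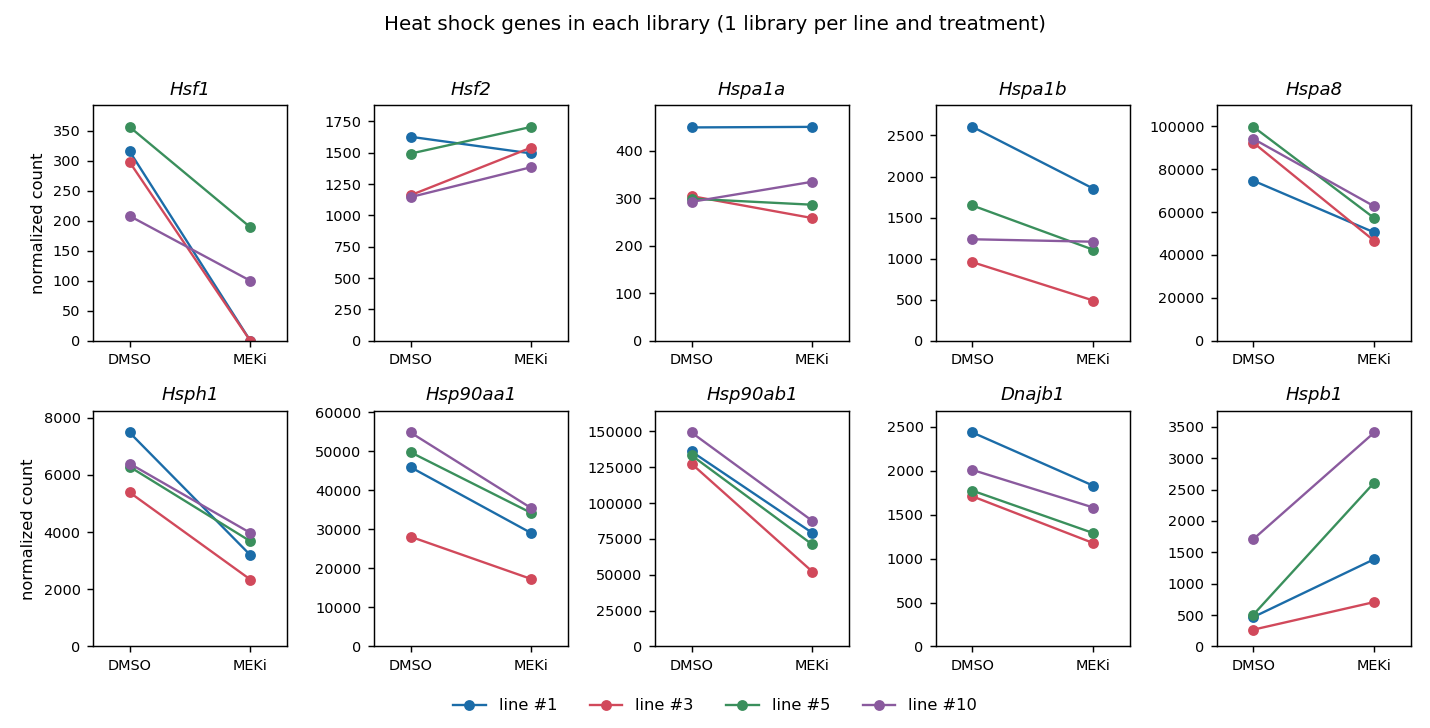
Normalized count (linear y axis from 0) of each heat shock gene with DMSO and with MEKi, 1 point per library and 1 colored line per cell line. Hsf1 is listed at 0 with MEKi in lines #1 and #3, the values of Hspa8, Hsph1 and Hsp90ab1 are separate between the groups, and those of Hspb1 are higher with MEKi in each line.

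HSP70 chaperones bind exposed hydrophobic stretches of unfolded proteins. Hspa8 encodes the constitutive form, HSC70, and Hspa1a and Hspa1b the stress-inducible form. Per kb of transcript, the DMSO level was 37662 ± 4532 (SD, n = 4 lines) for Hspa8, 575 ± 257 for Hspa1b and 113 ± 25.4 for Hspa1a, so the constitutive gene was far above the inducible pair in unstressed cultures.

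Hspa8 lies at chr9:40800984-40810087, plus strand, and 3 small nucleolar RNA genes sit within its bounds, overlapping annotated exons. Hspa8 was at 74595, 92283, 99699 and 94076 normalized counts with DMSO and at 50516, 46598, 57179 and 62672 with MEKi in lines #1, #3, #5 and #10. Every MEKi library was below every DMSO library. The log2 fold change was -0.56, -0.99, -0.80 and -0.59, with a mean of -0.73 ± 0.20, which corresponds to 60.1% of the DMSO level.

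A near copy complicates the level of Hspa8. Gm15459, a processed pseudogene at chr5:5781615-5783555 on the minus strand of GRCm38, shares 74.3% of the 31-base stretches of the Hspa8 transcript, so reads may be divided between them. It was chosen after its values were seen. Gm15459 was at 60508, 92.3, 31706 and 28773 with DMSO and at 40845, 42.2, 19620 and 20156 with MEKi. It thus took 44.8%, 0.0999%, 24.1% and 23.4% of the summed level of both with DMSO, and 44.7%, 0.0905%, 25.5% and 24.3% with MEKi. This share differed widely between lines but hardly between the treatments of a line. The sum of Hspa8 and Gm15459 was 135103, 92375, 131405 and 122849 with DMSO, which makes line #1 the highest line and not, as by Hspa8 alone, the lowest. The treatment change was nearly the same for the sum (mean log2 fold change -0.72 ± 0.20).

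Hspa1b was at 2604, 957, 1647 and 1236 with DMSO and at 1853, 491, 1108 and 1206 with MEKi. It was lower in all 4 lines, but by a log2 fold change of only -0.04 in line #10, against -0.49, -0.96 and -0.57 in lines #1, #3 and #5, and the groups overlapped. Hspa1a was at 449, 305, 299 and 293 with DMSO and at 450, 258, 287 and 335 with MEKi, higher in 2 lines and lower in 2 (mean log2 fold change -0.03 ± 0.18). The sign of this mean is not settled, since it was 0.05 without line #3, -0.24 with quantile normalization and 0.10 with libraries rescaled to equal totals.

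Hspa1b (chr17:34956436-34959238, minus strand) and Hspa1a (chr17:34969190-34972156, minus strand) are neighbors with coding sequences that are 99.4% identical, with 8 mismatched bases, and 296 of 300 promoter bases are the same. Reads of the pair may therefore be divided between the copies, so the values of each are uncertain. Their sum was 3053, 1262, 1946 and 1529 with DMSO and 2303, 749, 1395 and 1541 with MEKi. It was lower in 3 of 4 lines and not in line #10 (mean log2 fold change -0.41 ± 0.32). The profiles most like that of Hspa1b were those of Cetn2 and Phf6 (distance 0.19 each) and Orai2 (0.20).

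Hsph1 (chr5:149614287-149636376, minus strand) encodes HSP110, a distant HSP70 relative that recharges HSP70 with ATP by removing its ADP. It was at 7485, 5391, 6287 and 6399 with DMSO and at 3196, 2341, 3681 and 3972 with MEKi. The groups did not overlap, and its mean decrease was nearly that of Hsp90ab1 (log2 fold change -0.97 ± 0.28, which corresponds to 51.0% of the DMSO level). Hsph1 is the member of the set that shares no 31-base stretch with another gene.

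Dnajb1 (chr8:83608193-83612653, plus strand) encodes HSP40, a J protein that hands clients to HSP70 and stimulates its ATPase. Its levels were 2435, 1708, 1773 and 2009 with DMSO and 1829, 1177, 1290 and 1581 with MEKi. The groups overlapped because the lines differed, yet the log2 fold changes of the lines were close together (-0.41, -0.54, -0.46 and -0.35, mean -0.44 ± 0.08).

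HSP90 completes the folding of kinases and steroid receptors, and its cytosolic forms are encoded by the more inducible Hsp90aa1 (chr12:110690605-110702728, minus strand) and the constitutive Hsp90ab1 (chr17:45567775-45573271, minus strand). Hsp90ab1 had the highest DMSO level per kb of the 10 genes, 54143 ± 3651, against 13624 ± 3541 for Hsp90aa1. Hsp90ab1 was at 135936, 127421, 133235 and 149170 normalized counts with DMSO and at 79191, 52199, 71098 and 87564 with MEKi. These values did not overlap (mean log2 fold change -0.94 ± 0.24, which corresponds to 52.3% of the DMSO level). Hsp90aa1 was at 45976, 28150, 49809 and 54866 with DMSO and at 29066, 17289, 34232 and 35461 with MEKi. The groups overlapped through the low DMSO value of line #3, while the log2 fold changes of -0.66, -0.70, -0.54 and -0.63 had the smallest SD of the set (mean -0.63 ± 0.07, or -0.39 with quantile normalization). Hsp90aa1 shares 57.0% of its 31-base stretches with the pseudogene Gm12346, which was at 29.3 to 83.4 normalized counts in all libraries.

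The balance of the HSP90 pair moved as well. Hsp90aa1 made up 25.3%, 18.1%, 27.2% and 26.9% of the summed normalized counts of both genes with DMSO and 26.8%, 24.9%, 32.5% and 28.8% with MEKi. The share was higher with MEKi in 4 of 4 lines, most in line #3, and the groups overlapped.

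**Figure D2:**
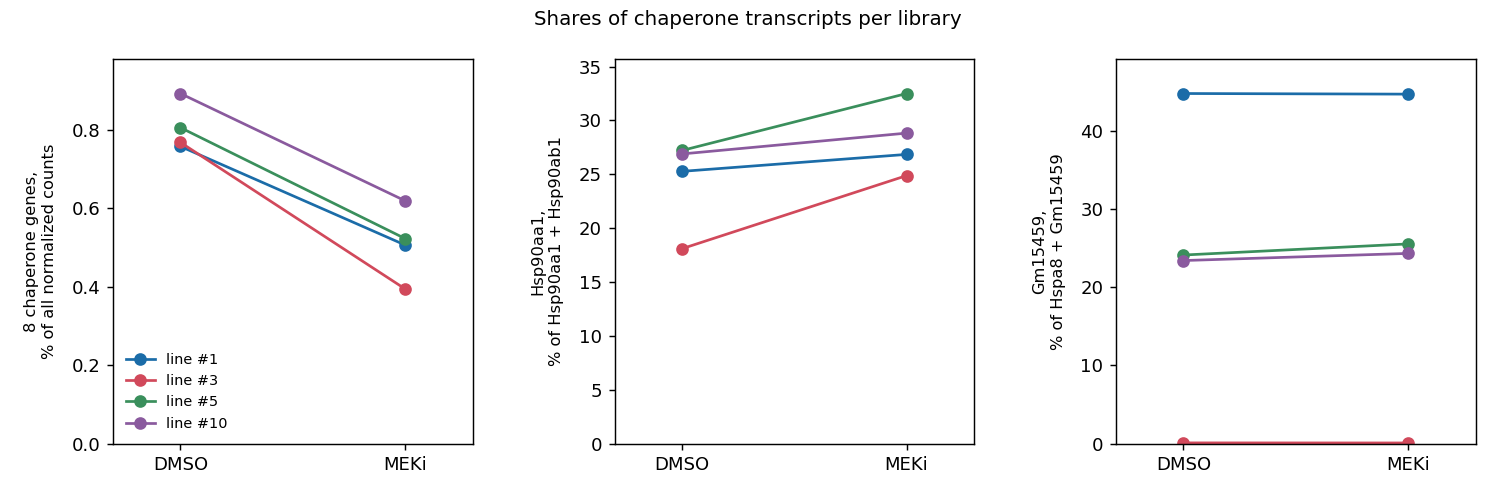
Shares in percent (linear y axes from 0), 1 point per library and 1 colored line per cell line. Left, the 8 heat shock protein genes as a share of all normalized counts, lower with MEKi in each line. Middle, Hsp90aa1 as a share of both HSP90 genes, higher with MEKi in each line. Right, Gm15459 as a share of its sum with Hspa8, from 44.8% in line #1 to 0.0999% in line #3 with DMSO.

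Hspb1 (chr5:135887919-135889563, plus strand), which encodes the small heat shock protein HSP25 (HSP27 in humans), holds unfolded proteins without using ATP and binds actin filaments. It was the 1 gene of the set that was higher with MEKi in all 4 lines. With DMSO it was at 469, 268, 509 and 1712, and with MEKi at 1391, 708, 2612 and 3410. It was higher in each line, by a log2 fold change of 1.57, 1.40, 2.36 and 0.99 (mean 1.58 ± 0.57), a mean that corresponds to 2.99-fold. The groups overlapped because line #10 with DMSO was above lines #1 and #3 with MEKi. The DMSO levels of Hspb1 spanned a 6.39-fold range between lines, a spread (SD of log2 values) larger than that of 89.6% of the genes tested. Its processed copy Hsp25-ps1, which shares 61.7% of its 31-base stretches, was listed at 0 in every library.

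**Figure D3:**
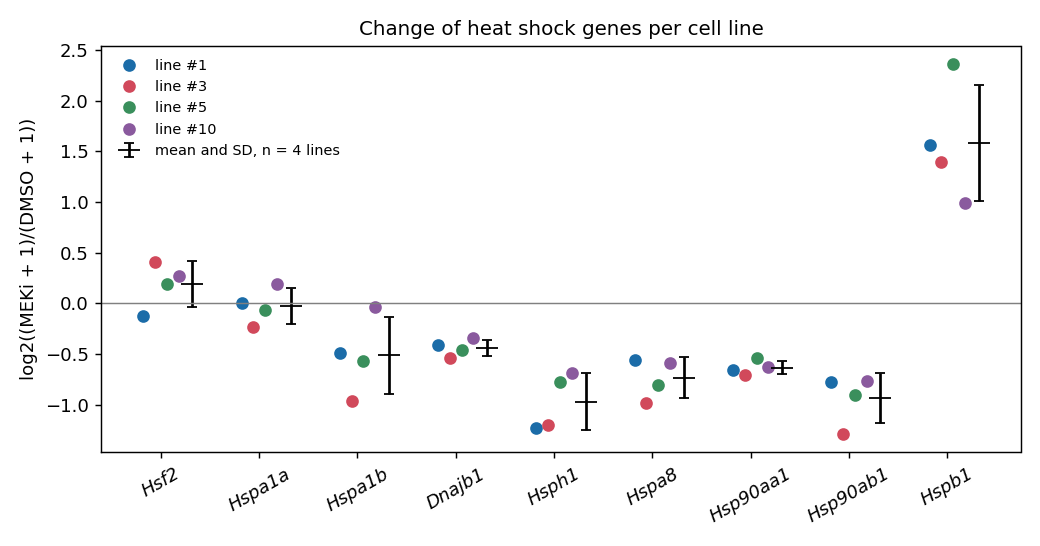
Log2 fold change with MEKi against DMSO, with a pseudocount of 1, for the 9 genes without a 0, 1 point per cell line, with the mean and SD (n = 4 lines) beside them. The changes of Hsp90aa1 and Dnajb1 are close between lines, those of Hspa1b and Hspb1 spread widely, and Hspb1 alone is above 0.9 in each line.

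All 10 genes passed the filter of a mean of at least 10 normalized counts, and the 9 without a 0 were counted in the limma fit over 15888 genes. Of these, 6 (Hspa1b, Hspa8, Hsph1, Hsp90aa1, Hsp90ab1 and Dnajb1) were lower at an adjusted p under 0.05, as were 25.6% of all genes tested. Hspb1 was higher, as were 27.3% of all genes, and Hsf2 and Hspa1a passed in neither direction. Groups that did not overlap were found for 3 of the 9 on the lower side (Hspa8, Hsph1 and Hsp90ab1), against 16.2% of all genes, and for 0 on the higher side, against 15.1%. The median log2 fold change of the 9 was -0.51, and that of all genes tested was 0.07. As the genes were chosen with this contrast known, nothing is read from these counts. The block for the cell line matters to them. Without it, 3 of the 9 were lower (Hspa8, Hsph1 and Hsp90ab1) and 0 were higher (limma, 4 and 1 at an unadjusted p under 0.05). Hspa1b also lost its call without line #1 and without line #5.

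Together the 8 heat shock protein genes made up 0.758%, 0.768%, 0.806% and 0.893% of all normalized counts with DMSO and 0.507%, 0.395%, 0.523% and 0.619% with MEKi. The groups did not overlap. With Gm15459 included, the shares were 0.928%, 0.769%, 0.893% and 0.976% with DMSO and 0.630%, 0.395%, 0.583% and 0.683% with MEKi. Hsp90ab1, Hspa8 and Hsp90aa1 set nearly all of this sum, so it says little of the less abundant genes.

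Levels were also ordered between the lines. Of the 10 genes, 5 had their highest DMSO level in line #1 (Hsf2, Hspa1a, Hspa1b, Hsph1 and Dnajb1) and 6 had their lowest in line #3, against 23.0% and 30.7% of all genes tested. With Gm15459 added, Hspa8 also was highest in line #1 and lowest in line #3. Line #3 also had the largest decrease for 5 of the 6 genes that were lower in limma, with Hsph1 as the exception, and line #10 the smallest for 4 of the 6. Across all 4075 genes that were lower in limma, line #3 had the largest fall for 67.9% and line #10 the smallest for 27.3%.

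To place these genes in the wider chaperone network, 9 lists of other chaperone and heat shock genes were described with the same limma fit. Of 139 genes listed, 126 passed the filter, of which 28 rose (22.2%) and 62 fell (49.2%) at an adjusted p under 0.05, against 27.3% and 25.6% of all genes tested. The median log2 fold change of the 126 was -0.32, against 0.07 over all genes. Of the 62 genes that fell, line #3 had the largest fall for 52 (83.9%). The lists were assembled with earlier results of these data known, and the counts describe them without a test of the list. In the main fit, the shares of all genes to set beside each list below are the same 27.3% and 25.6%.

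**Figure D4:**
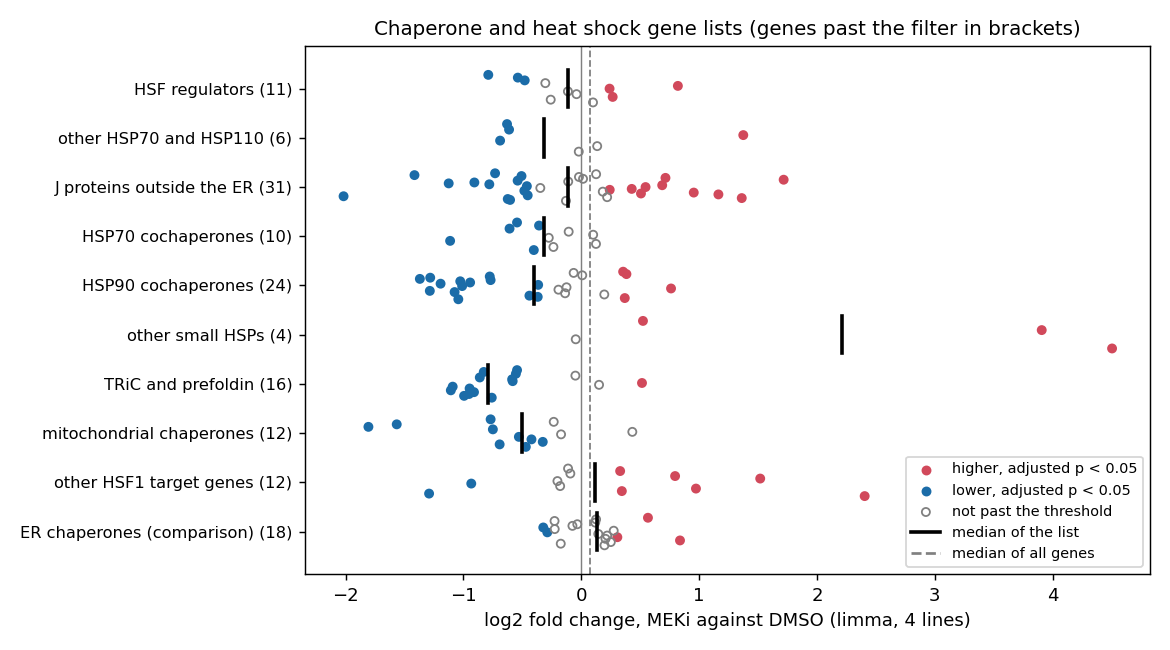
Log2 fold change with MEKi against DMSO (limma, 4 lines) of each gene past the filter in 9 chaperone and heat shock lists and in a list of ER chaperones for comparison. Red points rose and blue points fell at an adjusted p under 0.05, open points did not pass, black bars mark the median of each list and the dashed line marks the median of all genes, 0.07. The medians of the TRiC and prefoldin list (-0.79) and of the mitochondrial list (-0.50) lie to the left. That of the other small heat shock proteins (2.22) lies to the right and includes Hspb2, which passed the filter only through the MEKi group.

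Of 11 genes tested in the list of HSF regulators, 3 were higher and 3 lower (median -0.11). These shares of 27.3% each lie near those of all genes. The list includes the heat shock factors Hsf4 and Hsf5. The count of higher genes was 1 without line #1, #5 or #10, with centring, without the trend or without the filter. It was 0 without the block. Hsf4, a heat shock factor known from the lens, rose from 161 ± 54.6 to 287 ± 106 normalized counts (log2 fold change 0.82, SE 0.15, adjusted p = 0.0036 in limma), a call lost without the block and a change of 0.48 with quantile normalization. Dyrk2, a kinase that phosphorylates HSF1, rose by 0.27 (SE 0.09, adjusted p = 0.041 in limma). That call was lost without any 1 of the 4 lines and without the block. Ywhae, the 14-3-3 protein that binds phosphorylated HSF1, fell by 0.79 (SE 0.12, adjusted p = 0.0023 in limma, or by 0.50 with quantile normalization), and Ssbp1, a mitochondrial DNA-binding protein reported to join HSF1, by 0.54 (SE 0.08, adjusted p = 0.0023 in limma).

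Of the other HSP70 and HSP110 genes, 1 of 6 rose and 3 fell (median -0.32). Hspa2, the HSP70 form abundant in testis, was at 183, 143, 181 and 228 with DMSO and at 488, 460, 460 and 482 with MEKi (log2 fold change 1.38, SE 0.15, adjusted p = 0.00069 in limma), so its DMSO and MEKi levels were apart. Hspa14, a ribosome-associated HSP70, had a log2 fold change of -0.69 (SE 0.10, adjusted p = 0.002 in limma). Hspa4l, of the HSP110 family like Hsph1, had one of -0.63 (SE 0.19, adjusted p = 0.029 in limma, or -0.41 without line #3), a call lost without line #1, without the block, without the trend, with equal totals and with quantile normalization.

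J proteins other than those of the ER comparison list were mixed, with 10 of 31 higher and 13 lower (median -0.11). Without the block these counts were 5 and 8. Dnajc9, a J protein that also chaperones histones, fell from 1716 ± 239 to 671 ± 214 (log2 fold change -1.42, SE 0.17, adjusted p = 0.0011 in limma). The 3 others with the largest changes had low counts. Dnajc28 rose from 83.8 ± 23.9 to 273 ± 48.0 and Dnaja4 from 35.3 ± 18.4 to 84.7 ± 13.7 (log2 fold changes of 1.72 and 1.36, adjusted p = 0.0013 and 0.013 in limma). Dnajb13, of cilia and sperm tails, was at 36.2 ± 13.5 with DMSO and at 8.01 ± 2.66 with MEKi (log2 fold change -2.02). It passed the filter of 10 only through the DMSO group, so no p-value is given for it. With the filter at a mean of 50, 12 genes of this list fell. The call of Dnaja4 was lost without line #1 and with quantile normalization (log2 fold change 0.91, adjusted p = 0.057 in limma).

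HSP70 cochaperones were lower or not called. Of 10, 5 fell and 0 rose in limma (0 also at an unadjusted p under 0.05), with a median of -0.32. The lower count was 3 without line #5, without the trend, with equal totals or with quantile normalization and 2 without the block, and 1 gene was higher under both of these scalings. The largest decreases were those of Bag4, a nucleotide exchange factor (log2 fold change -1.11, SE 0.20, adjusted p = 0.0039 in limma), and of Hspbp1, another exchange factor (-0.61, SE 0.13, adjusted p = 0.0072 in limma, not called without the block). Bag3 is a classical HSF1 target and was picked here with its values in view. It was at 2224, 1200, 2438 and 1546 with DMSO and 2442, 1213, 2738 and 1754 with MEKi and did not pass (adjusted p = 0.24 in limma).

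HSP90 cochaperones fell in 14 of 24 cases and rose in 4 (median -0.40), with a higher count of 2 without line #1 or without the trend and of 1 without the block. Ruvbl1, an ATPase that works with HSP90 in building large complexes, fell from 4752 ± 877 to 1893 ± 578 (log2 fold change -1.37, SE 0.13, adjusted p = 0.00047 in limma). Fkbp5, the immunophilin of steroid receptor complexes, fell from 3864 ± 1206 to 1586 ± 530 (-1.29, SE 0.23, adjusted p = 0.0037 in limma). Fnip1 and Tsc1, which slow the HSP90 ATPase and act in mTORC1 control, rose by 0.76 (SE 0.09, adjusted p = 0.00084 in limma) and 0.38 (SE 0.08, adjusted p = 0.0063 in limma). The call of Tsc1 was lost without the block.

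Among the other small heat shock proteins, Cryab and Hspb6 rose, as did Hspb2, which passed the filter only through the MEKi group. Of 10 listed, 2 were not in the table and 4 were below the filter. Of the 4 tested, 3 rose and 0 fell in limma (0 also at an unadjusted p under 0.05), and Hspb11 was not called. Cryab, which encodes alpha B-crystallin, was at 108, 43.0, 119 and 53.5 with DMSO and at 2001, 1222, 1732 and 1966 with MEKi. Each MEKi library was above 1200 and each DMSO library below 120, a log2 fold change of 4.51 (SE 0.23, adjusted p = 9.6e-05 in limma). Hspb2, its neighbor on chromosome 9, was at 3.05 ± 3.68 with DMSO and at 44.7 ± 14.1 with MEKi (log2 fold change 3.91). Its DMSO mean was under the filter of 10, so its high MEKi values decided that it was tested, and no p-value is given for it. With the filter at a mean of 50, 2 genes of this list rose. The exons of Hspb2 and Cryab overlap on opposite strands, so the low counts of Hspb2 are uncertain. Hspb6 rose from 657 ± 148 to 986 ± 389 (log2 fold change 0.52, SE 0.13, adjusted p = 0.014 in limma), with overlapping groups and a call lost without line #1, without line #5 and without the block.

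Among the 9 lists, the cytosolic chaperonin TRiC and its helper prefoldin had the largest share of falling genes in the main fit. TRiC folds actin and tubulin. In this list 13 of 16 genes fell and 1 rose (median -0.79). With centring on the median the mitochondrial chaperones had the larger share, 10 of 12 against 13 of 16. Cct6a fell from 19406 ± 1090 to 9135 ± 1741 (log2 fold change -1.11, SE 0.11, adjusted p = 0.00059 in limma) and Cct8 from 20734 ± 4458 to 10031 ± 3159 (-1.09, SE 0.12, adjusted p = 0.00068 in limma). The exception was Pdcl3, a phosducin-like modulator of the chaperonin, which rose by 0.52 (SE 0.08, adjusted p = 0.0026 in limma).

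Mitochondrial chaperones fell in 9 of 12 cases and rose in 0 (limma, 1 at an unadjusted p under 0.05), with a median of -0.50. Without the block 5 fell, and with equal totals 1 rose. The partners Hspd1 and Hspe1, which encode HSP60 and HSP10 of the mitochondrial folding chamber, fell most. Hspd1 was at 43920, 51042, 49431 and 52433 with DMSO and at 14411, 8799, 17074 and 17927 with MEKi (log2 fold change -1.81, SE 0.18, adjusted p = 0.0006 in limma). Hspe1 was at 7106, 9321, 7575 and 7705 with DMSO and at 2723, 1979, 2973 and 3136 with MEKi (-1.57, SE 0.17, adjusted p = 0.00068 in limma). Neither gene overlapped between the groups, and line #3 had the largest fall for both.

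Hspd1 and Hspe1 lie head to head on chromosome 1 with overlapping exons, and near their starts lies a heat shock element longer than those above. Its window at chr1:55088053-55088082 is shown on both strands, with a run of 3 overlapping motifs in capitals that begins 89 bases before the start of Hspe1. For Hspd1 the window lies upstream of 1 of the 2 starts in the table and downstream of the other, whose promoter entry holds no match. A run of at least 3 alternating GAA and TTC units, each 2 bases from the next and read on both strands, occurs in 0.603% of the promoters and 0.662% of the genes in the table.
Hspe1: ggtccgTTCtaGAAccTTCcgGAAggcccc
Hspd1: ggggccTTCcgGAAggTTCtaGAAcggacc

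The same extended run occurs in 1 of the 6 promoters of the heat shock genes, that of Hsph1, where it begins at base 37 or 16 from the start, depending on the start taken, and so downstream of the window shown above. Of the genes shown with a matching element, Hspd1, Hspe1, Hsph1 and Hspa1b were lower, Hspb1 higher and Hspa1a called in neither direction with MEKi. The calls of Hspa1b and Hspb1 were lost without the block. As these genes were picked with their response known, nothing about the element is read from their calls. A match of letters is no evidence of binding.

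Other genes known as HSF1 targets moved in both directions, as did all genes. Of 12, 6 rose (50%) and 2 fell (16.7%), against 27.3% and 25.6% of all genes tested. The median was 0.12, against 0.07 over all genes. Without the block 3 rose, as did 2205 of all 15888 genes. Atf3, a stress-induced transcription factor, was at 308, 171, 317 and 321 with DMSO and at 1309, 1199, 1707 and 1599 with MEKi (log2 fold change 2.41, SE 0.14, adjusted p = 0.00015 in limma). Serpinh1, the collagen chaperone HSP47, rose from 4129 ± 2806 to 10124 ± 4335 (1.52, SE 0.26, adjusted p = 0.0033 in limma, not called without the block). Cacybp, a partner of ubiquitin ligases, and Mrpl18, a mitochondrial ribosome protein, had log2 fold changes of -1.29 (SE 0.17, adjusted p = 0.0013 in limma) and -0.93 (SE 0.13, adjusted p = 0.0014 in limma).

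Chaperones of the ER, which answer to the unfolded protein response and not to HSF1, were taken for comparison. Of 18, 3 rose and 2 fell (median 0.14), so most were not called. These counts depend on the processing: 0 fell without line #5 or #10, with equal totals, with quantile normalization or without the block, 1 fell without line #1 and 5 without line #3, and 6 rose under both scalings and 1 without the block. Dnajb9 rose from 477 ± 142 to 858 ± 244 (log2 fold change 0.84, SE 0.16, adjusted p = 0.0045 in limma) and Sil1 from 724 ± 179 to 1096 ± 396 (0.57, SE 0.11, adjusted p = 0.006 in limma). Hsp90b1, the ER member of the HSP90 family, had a log2 fold change of -0.29 (SE 0.10, adjusted p = 0.043 in limma), and Manf one of -0.32 (SE 0.08, adjusted p = 0.015 in limma). With quantile normalization these were -0.014 and -0.21, and with equal totals -0.16 and -0.19. Sil1 was not called without the block, and the difference between these chaperones and the cytosolic ones was not tested.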

How the data were processed

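Stranded mRNA libraries (TruSeq) of 8 samples were sequenced by the authors, who deposited 1 table of 34478 gene symbols with normalized counts (a signal made comparable between libraries) in each sample. The submitters' processing notes name CASAVA 2.17, Salmon 0.12, DESeq2 1.18 and mm10, without their roles. Library totals were 30680091 to 36385719 normalized counts, and 3398 genes were at 0 in every library. The values are not whole numbers of reads, so no count test was run and no counting interval is given. How reads of near-identical copies were divided is not given in the sources used here and may affect Hspa8, Hspa1a and Hspa1b.

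Values were transformed as log2(value + 1), a scale that understates changes of low genes, and limma 3.58.1 (R 4.3.3; lmFit, eBayes with trend, cell line as block) was run on the 15888 genes whose mean reached 10. Calls rest on an adjusted p under 0.05 after Benjamini-Hochberg correction over these genes. The pairing comes from the sample labels, which give both libraries of a line its number, and deviations from the treatment means correlated within lines (0.63 to 0.72 across genes). On simulated data for MEKi against DMSO, the fit recovered 86 of 100 genes changed 4-fold and 61 of 100 changed 2-fold. It made 8 false calls among 15888 genes. The simulation changed only 200 genes and drew its noise from a normal distribution. In the data, 4341 genes were called higher and 4075 lower, so its recovery and false calls need not hold there.

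The members and lists were chosen with earlier results of these data known. Named were the 10 genes, the 2 largest rises and falls of each list among genes past the threshold with 1 direction in all lines, Dusp6, Etv4, the neighbors of Hsf1, and the 3 nearest profiles to Hsf1 and Hspa1b. Bag3, Hspb6, Hspb11, Gm15459, Gm12346, Hsp25-ps1, Tsc2, Rrp36 and the cell type markers were named after their values were seen. Positions are from GENCODE M21 (GRCm38), promoters from RefSeq (GRCm38.p6). Shared sequence was counted as 31-base stretches of the longest CCDS transcript found in transcripts of other genes, and levels per kb use that transcript's length. Python 3.11.15, numpy 2.4.6, pandas 2.3.3 and matplotlib 3.10.9 were used for tables and plots. The alternatives were pseudocounts of 0.1 and 5, leaving out the filter or raising it to 50, 3 other scalings, no block, no trend, a minimum change of 2-fold, each line left out, Hspa1a and Hspa1b summed and, added after the data were seen, Hspa8 and Gm15459 summed. An allele of the mouse model and a marker gene are not reported here.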

Additional observations from a re-analysis of the deposited data

Results flagged for a closer look

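In 15 of 140 groups of 4 values that were screened, 1 library or line stood apart from the other 3 by Dixon's criterion, where chance gives about 7. For levels with DMSO these were Hspa1a in line #1 (449 normalized counts, against 293 to 305), Hspb1 in line #10 (1710, against 268 to 509), Hspa14 in line #10 (3840), Atf3 in line #3 (171), Hsp90b1 in line #10 (21000), Dnajb9 in line #1 (689) and Manf in line #10 (2510). For levels with MEKi they were Dyrk2 (2620) and Cct8 (5320), both in line #3. For log2 fold changes they were Hspa14 (-1.0), Fkbp5 (-2.24), Cct6a (-1.47), Hspd1 (-2.54) and Hspe1 (-2.24), all in line #3, and Fnip1 in line #1 (0.587). Line #3 thus accounted for 5 of the 6 changes that stood apart.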

How the results depend on the processing

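With a minimum change of 2-fold (limma treat), 557 genes were higher and 176 lower, 0 of the 9 heat shock genes were called in either direction (1 higher and 0 lower at an unadjusted p under 0.05), and 3 list genes were higher and 1 lower. With no replicate block, 2205 genes were higher and 2347 lower, of the 9 heat shock genes 0 were higher and 3 lower, and 13 list genes were higher. Leaving out each line in turn gave 3383 to 4195 higher and 3302 to 4007 lower genes, 1 higher and 5 to 6 lower heat shock genes, and 18 to 27 higher (18 without line #1) and 55 to 61 lower list genes. Rescaling to equal totals shifted the median log2 fold change of all genes by 0.13 (5315 higher, 3284 lower), quantile normalization by -0.10 (3779 and 4233), and centring on the median gave 3848 and 4492. Hsp90aa1 moved to -0.51 and -0.39 with the first pair of these settings. Hspa1b lost its call in 6 settings, Hsp90aa1, Dnajb1 and Hspb1 in 2 each (no block and the minimum change), and Hspa8, Hsph1 and Hsp90ab1 in 1 (the minimum change). Of the named list genes over all settings, 453 values kept their direction and side of the threshold, 63 kept the direction only and none reversed. The absence of reversals says little, because these genes were named for having 1 direction in all lines. Leaving out a line or changing the pseudocount could therefore not reverse them. The block, the trend, the filter and the minimum change leave the log2 fold change as it is. Only the scalings could have reversed a direction. The causes of the moves between settings were not tested. Without line #1, the mean log2 fold change of Hsph1 (-0.89) was closer to 0 than that of Hsp90ab1 (-0.99). A value of 0 cannot be told from a failed estimate.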
